A study of Mus musculus with 6 samples.

Results

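The chaperonins are barrel-shaped protein machines that take up an unfolded protein, close over it and release it after ATP hydrolysis. The genes of both mouse chaperonins were measured by RNA-seq in tissue labelled as kidney and taken on day 2. They comprise the 8 genes of the cytosolic chaperonin CCT (Tcp1, Cct2, Cct3, Cct4, Cct5, Cct6a, Cct7 and Cct8) and the pair that encodes the mitochondrial chaperonin, Hspd1 and Hspe1. These 10 genes were taken by symbol from the 25189 gene symbols of the deposited count table, and all 10 passed the filter on low counts, as did 14184 genes in all. The mice were male, wild type and of the C57BL/6 strain. One group, I/R, had 3 libraries. The other, I/R with chemerin-9, also had 3 libraries, so both groups carried the I/R injury and no uninjured group was analysed here. I/R stands in this field for ischemia followed by reperfusion, and chemerin-9 is a short peptide from the end of the protein chemerin. The study asked what chemerin-9 changes in the injured kidney. Nothing in the labels says whether each library is a separate mouse, so a p-value here covers only the spread from library to library.

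The columns read as chemerin-9 carry the letters IC, which were read as short for I/R plus C9, and the direction of every comparison rests on that reading. The labels of the treated samples give other column names, with the letter S, that belong to a table not used here. Library totals ranged from 11217252 to 16938301 counts, and a member gene had between 1084 and 16768 counts in a library, so counting alone gives an error of 0.828% to 1.92% of a member's level in I/R. Each of the 6 libraries has its own batch value in the labels, so batch and treatment cannot be told apart, and no within-batch value exists. The batch values are 6 dates in a row and may come from filling down a column, so they may not mark real batches. I/R replicate 3 stood apart from its group, at a chi-square over genes, divided by its degrees of freedom, of 6.17 and 5.64 against I/R replicates 1 and 2, where those differed by 1.81 and the chemerin-9 libraries by 1.95 to 2.25. Of 23 markers of kidney tubule and glomerulus, 11 had a row, and their median level was 0.349 to 0.861 CPM, a count scaled to the library's size. The median over every tested gene was 25.7 to 26.3 CPM. The 11 kidney markers summed to 82.8 to 84.6 CPM in I/R and 65.1 to 76.7 CPM with chemerin-9, most of it from Pax8 (26.2 to 46.8 CPM), Aqp1 (15.7 to 19.8 CPM) and Podxl (11.1 to 18.7 CPM). The other kidney markers with a row lay at or below 3.85 CPM. Among them, Aqp2, a collecting duct water channel, lay between 0 and 0.174 CPM, and Lrp2, an endocytic receptor in proximal tubule cells, between 2.51 and 3.85 CPM. Summed markers of fibroblasts and smooth muscle (9 of 13 with a row) were 2690.2 to 2816 CPM in I/R and 2137 to 2218 CPM with chemerin-9, while the median of the same list was 33.4 to 38.3 CPM in I/R and 47.8 to 51.4 CPM with chemerin-9. The sum was carried by Vim, Col1a1 and Col1a2. Summed markers of dividing cells (14 of 14) were 5184 to 5377 and 5161 to 5284 CPM. Markers of endothelium, leukocytes and red blood cells (10 of 20) summed to 12.0 to 13.9 and 17.4 to 18.6 CPM, with Pecam1 at 0 to 0.737 CPM. Whether these shifts have a part in the chaperonin values was not tested. In such bulk samples, fewer cells of a type and less RNA per cell cannot be told apart.

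CCT, also called TRiC, is built of stacked rings, and each ring holds 1 copy of each of its 8 different subunits in a fixed order. It folds newly made actin and tubulin and a set of other proteins, many of which cannot reach their native form without it. The mitochondrial chaperonin is simpler. Hspd1 encodes HSP60, the single kind of subunit in its barrel, and Hspe1 encodes HSP10, the lid that closes it over proteins imported into the matrix. The kidney tubule is rich in mitochondria and depends on an actin brush border, and both machines work there. In these libraries, however, most kidney markers with a row were low and markers of dividing cells were high. The values here therefore cannot be assigned to tubule cells.

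Hspd1 and Hspe1 lie head to head on chromosome 1 and share a promoter region. In the coordinates of the deposited table (GRCm38), Hspd1 spans chr1:55077835-55088243 on the minus strand (ENSMUSG00000025980) and Hspe1 spans chr1:55088132-55091307 on the plus strand (ENSMUSG00000073676), so the gene bodies overlap by 112 bases. The CCT genes are scattered, each on a chromosome of its own: Tcp1 on 17, Cct2 on 10, Cct3 on 3, Cct4 on 11, Cct5 on 15, Cct6a on 5, Cct7 on 6 and Cct8 on 16. RefSeq promoter windows (GRCm38.p6), each from 250 bases before the start to 50 after it, matched 9 of the 10 genes with 12 windows. Cct4 had no window, so its promoter was not searched. A few of the windows follow: that of Hspe1, which is also nearly all of the upstream window of a second Hspd1 start; those of Cct8 and Cct2, the CCT genes with the largest rise and the largest fall; and that of Cct6a, a gene that rose and holds a short heat shock motif. Capitals mark the motifs found by searching both strands.

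Hspe1 promoter, chr1:55087898-55088197, plus strand: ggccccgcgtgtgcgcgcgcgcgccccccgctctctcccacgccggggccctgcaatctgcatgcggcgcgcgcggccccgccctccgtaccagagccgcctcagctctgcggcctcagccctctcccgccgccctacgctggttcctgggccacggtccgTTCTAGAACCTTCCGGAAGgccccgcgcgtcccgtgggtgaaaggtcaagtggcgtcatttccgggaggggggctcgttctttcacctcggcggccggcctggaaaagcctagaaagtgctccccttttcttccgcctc
Cct8 promoter, chr16:87495820-87496119, minus strand: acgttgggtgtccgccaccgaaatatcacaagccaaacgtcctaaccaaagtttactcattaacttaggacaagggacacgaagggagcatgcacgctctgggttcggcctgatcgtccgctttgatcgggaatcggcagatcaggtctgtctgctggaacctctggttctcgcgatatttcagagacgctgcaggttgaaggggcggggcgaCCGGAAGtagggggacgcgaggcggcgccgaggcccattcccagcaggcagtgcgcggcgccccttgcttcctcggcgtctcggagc
Cct2 promoter, chr10:117063803-117064102, minus strand: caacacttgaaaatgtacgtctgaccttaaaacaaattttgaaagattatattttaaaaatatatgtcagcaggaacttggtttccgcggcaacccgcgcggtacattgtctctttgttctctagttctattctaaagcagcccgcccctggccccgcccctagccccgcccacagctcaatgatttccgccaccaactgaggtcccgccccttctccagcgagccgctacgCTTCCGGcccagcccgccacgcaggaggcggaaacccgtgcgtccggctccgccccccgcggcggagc
Cct6a promoter, chr5:129787106-129787405, plus strand: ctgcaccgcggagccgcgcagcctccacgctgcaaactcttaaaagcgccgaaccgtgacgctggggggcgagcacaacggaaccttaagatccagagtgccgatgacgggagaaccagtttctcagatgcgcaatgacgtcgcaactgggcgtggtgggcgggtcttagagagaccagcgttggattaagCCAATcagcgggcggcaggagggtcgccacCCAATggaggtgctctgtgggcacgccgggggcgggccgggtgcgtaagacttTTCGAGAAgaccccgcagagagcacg

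The long capital run in the Hspe1 window holds a heat shock element of 4 alternating units, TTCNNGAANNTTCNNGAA, which starts 89 bases before the Hspe1 start. Its last units overlap the ETS core, CCGGAAG or CTTCCGG. One window of Hspd1, chr1:55087883-55088182 on the minus strand, shares 285 bases with the Hspe1 window and therefore the same element. Only 8 of 32851 promoter windows, or 0.0244%, held such a run of 4 units in either orientation (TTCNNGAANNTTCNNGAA or GAANNTTCNNGAANNTTC). They belonged to Hspd1, Hspe1, Kctd18, Arpc2, Fam149a, Chordc1, Gm38873 and Gm41230, the last pair of which were not tested. Of the tested genes beside Hspd1 and Hspe1, Kctd18 fell (log2 -0.36, adjusted p = 0.00175) and Chordc1, a cochaperone of HSP90, fell (log2 -0.13, adjusted p = 0.0175). Fam149a rose (log2 0.26, adjusted p = 0.0276), and Arpc2 had a log2 fold change of -0.05 (adjusted p = 0.326).

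Cct4 aside, which had no window, no CCT window held the run of 4 units or the run of 3 (GAANNTTCNNGAA or TTCNNGAANNTTC, in 0.603% of windows). The short pair of units, GAANNTTC or TTCNNGAA, which 15.1% of windows hold and which is also part of the longer runs, was found in windows of Cct6a, Cct5 and Cct2 (the other Cct2 window, not printed). Of these, Cct6a and Cct5 rose and Cct2 fell. The ETS core, in 8.86% of all windows and 17.8% of those of tested genes, was found in those of Tcp1, Cct2 and Cct8, where it is the capital run of the Cct8 and Cct2 sequences above. The CCAAT box, CCAAT or ATTGG, in 37.4% of windows, was found in Tcp1, Cct3, Cct6a, Cct7 and the other Hspd1 window. The NRF1 core GCGCATGCGC (0.971% of all windows and 2.05% of those of tested genes) was in Cct5, and the E box CACGTG (7.15% of windows) in Hspd1. Such matches describe letters only.

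With chemerin-9, the transcripts of the cytosolic chaperonin did not move as a unit: 4 of the 8 subunit genes rose and 4 fell, while both mitochondrial chaperonin genes fell. Cct8 rose 1.43-fold and Cct2 fell by 27.8%, and rises and falls largely offset each other in the sum over the complex. All 10 genes passed edgeR's quasi-likelihood test at an adjusted p under 0.05 (Benjamini-Hochberg over 14184 genes). In all 10 genes the 3 libraries of one group lay wholly above the 3 of the other. Neither count sets the chaperonins apart, because 51.7% of all tested genes passed (25.6% higher and 26.1% lower) and 58.5% had groups that did not overlap. Among the 1611 genes at least as abundant as the least abundant chaperonin gene, 75.0% passed (34.9% higher and 40.0% lower) and 79.7% had groups that did not overlap. The median log2 fold change was 0.0077 over the 8 CCT genes and -0.0037 over all tested genes. What differed among the members was the direction and the size of change.

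**Figure D1:**
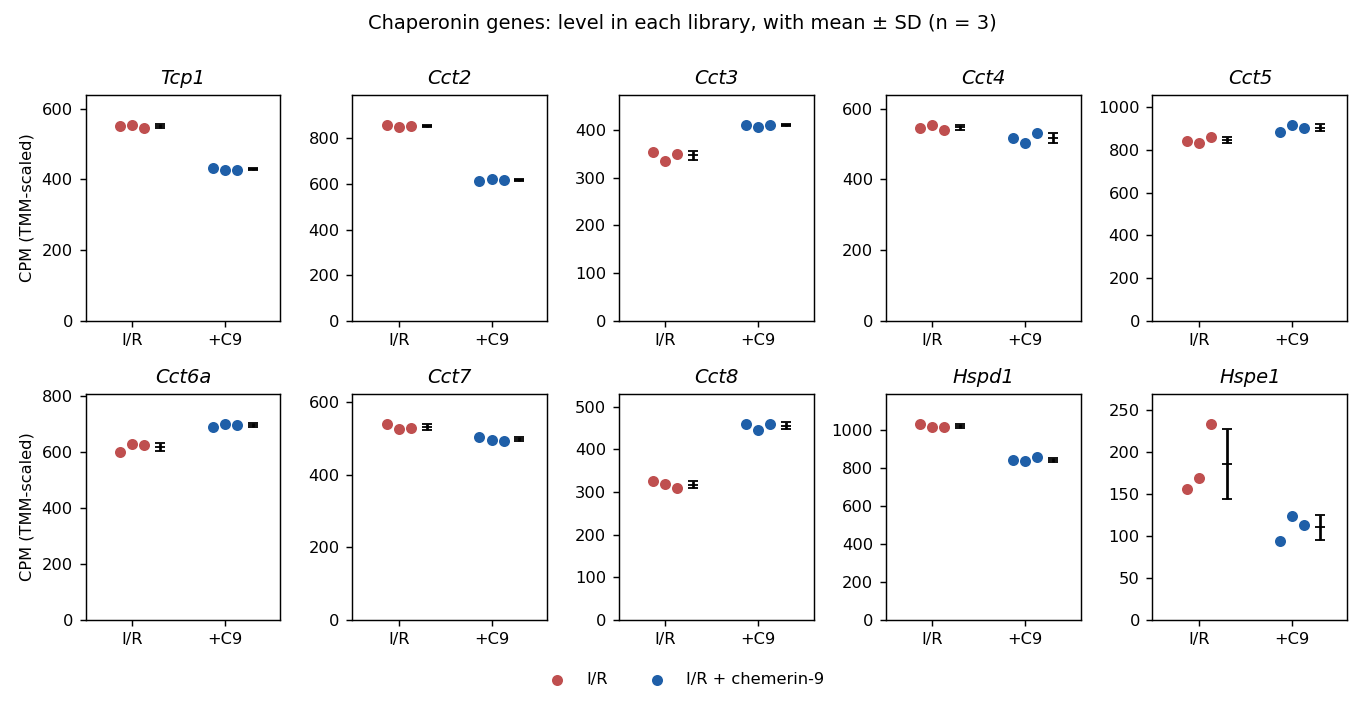
Level of each chaperonin gene in TMM-scaled CPM (vertical axis from 0) in every library, by group (I/R in red, I/R with chemerin-9 in blue), with the mean and SD of 3 libraries in black. The groups are apart in all 10 panels, Cct8 shows the largest rise, and Hspe1 shows the widest spread, with 1 I/R library at 234 CPM.

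Cct8, which encodes the theta subunit, rose most. It was at 326, 318 and 309 CPM in the I/R libraries and at 460.2, 445 and 460.4 CPM with chemerin-9. The means were 318 ± 8.42 and 455 ± 8.57 CPM (SD, n = 3), a log2 fold change of 0.52 (SE 0.03) with an edgeR adjusted p of 1.06e-08. The gap between the groups was many times the spread within either. A change this large in either direction was seen in 10.6% of the genes at least as abundant as the least abundant member. Cct8 shares 192 exon bases with Usp16 on the opposite strand. Usp16 had 612 to 935 counts and a log2 fold change of 0.40, and no source used here gives the strand setting of the counting, so a small part of the Cct8 count is uncertain.

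Cct3, the gamma subunit, was at 355, 336 and 349.8 CPM in I/R and at 412, 408 and 411 CPM with chemerin-9. It rose by 18.2%, from 347 ± 9.96 to 410.1 ± 2.26 CPM (log2 0.24, SE 0.03, edgeR adjusted p = 2.22e-05). Cct6a, the zeta subunit, was at 602, 629 and 624 CPM in I/R and at 690.5, 702 and 698 CPM with chemerin-9. It rose by 12.7%, with all 3 chemerin-9 libraries above the highest I/R library (log2 0.17, SE 0.03, edgeR adjusted p = 1.95e-04). Cct6a shares 452 exon bases, 12.5% of its exon sequence, with Psph on the opposite strand. Psph had 2500.0 to 4782 counts and a log2 fold change of -0.26, opposite in sign to that of Cct6a.

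Cct5, the epsilon subunit, known for a mutation that causes a hereditary sensory neuropathy, rose by 6.92%. Its levels were 843, 832 and 859.8 CPM in I/R against 887, 919 and 904 CPM with chemerin-9 (log2 0.10, SE 0.03, edgeR adjusted p = 0.0109). The call ended without I/R replicate 2 (adjusted p = 0.0538) or without chemerin-9 replicate 2 (adjusted p = 0.0609). In the assembled ring, the gamma, zeta and theta subunits are neighbours, and the transcripts of all 3 rose. The epsilon subunit, whose transcript rose as well, does not lie next to them. The grouping of the 3 was noticed after the values were seen and was not tested.

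Cct2, the beta subunit, fell most among the CCT genes. Its 3 I/R libraries were at 861, 851 and 854 CPM and its chemerin-9 libraries at 613, 621 and 618 CPM. The mean fell from 855 ± 5.27 to 617 ± 4.15 CPM, a log2 fold change of -0.47 (SE 0.03, edgeR adjusted p = 4.40e-09). The 2 groups were far apart compared with the range within either. As large a change was seen in 14.0% of the genes at least as abundant as the least abundant member.

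Tcp1, the alpha subunit, named for the t-complex region of mouse chromosome 17, also fell. It was at 551, 555 and 545 CPM in I/R and at 433, 426 and 428 CPM with chemerin-9. The mean fell by 22.0%, from 550.5 ± 5.02 to 429 ± 3.66 CPM (log2 -0.36, SE 0.03, edgeR adjusted p = 1.36e-07). Tcp1 shares 141 exon bases with Mrpl18 and 571 with Acat3, both on the opposite strand, but these genes had at most 386 and 27 counts in a library, against at least 4972 for Tcp1.

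Cct7 and Cct4, the eta and delta subunits, changed least. Cct7 was at 541, 526 and 529 CPM in I/R and at 504, 495 and 494 CPM with chemerin-9, and fell by 6.43% (log2 -0.10, SE 0.03, edgeR adjusted p = 0.0148). Cct4 was at 547, 556 and 539 CPM in I/R and at 517, 503 and 531 CPM with chemerin-9, and fell by 5.47% (log2 -0.08, SE 0.03, edgeR adjusted p = 0.0443). Cct7 shares 214 exon bases with Pradc1 on the opposite strand, which had at most 170.0 counts. The lowest I/R library of Cct4 (539) lay close above its highest chemerin-9 library (531). Changes at least as large as those of Cct4, Cct7 and Cct5 were seen in 78.7%, 74.7% and 74.4% of the genes at or above the level of the least abundant member. The Cct4 call ended in 7 of 17 alternative settings, among them the removal of I/R replicate 1 or 2 or of chemerin-9 replicate 1 or 2 (adjusted p = 0.0743, 0.117, 0.0854 and 0.156). With a trend on GC content and length removed, the log2 fold change became -0.15 for Cct4 (adjusted p = 8.57e-05) and -0.05 for Cct7 (adjusted p = 0.0827), and the Cct7 call also ended without I/R replicate 1 (adjusted p = 0.0518).

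Hspd1, the HSP60 barrel, was at 1036, 1019.8 and 1018 CPM in I/R and at 841, 836 and 857 CPM with chemerin-9. It fell by 17.5%, from 1024 ± 9.84 to 845 ± 11.2 CPM (log2 -0.28, SE 0.03, edgeR adjusted p = 8.23e-07). The highest chemerin-9 library was well below the lowest I/R library. A change at least that large is common here: 36.8% of the genes at least as abundant as the least abundant member had one. Hspd1-ps3, a processed pseudogene 99.0% identical to Hspd1 over 1722 bases, had only 156 to 246 counts and a log2 fold change of -0.35.

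Hspe1, the HSP10 lid, showed the largest fall of the 10 genes and the largest spread. It was at 156, 169 and 234 CPM in I/R and at 94.5, 124 and 113 CPM with chemerin-9. The mean fell by 40.7% on the fitted scale, from 186 ± 41.9 to 111 ± 15.0 CPM (log2 -0.75, SE 0.12, edgeR adjusted p = 9.59e-05). The third I/R library stood above the other two, and the first chemerin-9 library was the lowest. The adjusted p depended on the method: it was 0.0433 with the robust option of edgeR and 0.00213 with DESeq2. Without I/R replicate 3 the log2 fold change was -0.55 (edgeR adjusted p = 8.96e-12). That library also had the highest share of its counts in ribosomal protein genes, 3.89% against 3.19% and 3.27% in the other I/R libraries and 2.49% to 2.71% with chemerin-9. As large a change as that of Hspe1, the least abundant member, was seen in 3.17% of the genes at least as abundant as it. Hspe1, with a transcript of 774 bases, has 1 copy elsewhere in the genome that is 99.0% identical to it over 515 bases. That copy was not analysed here. In addition, 7.60% of the Hspe1 exon bases overlap Hspd1 on the opposite strand. Hspd1 had at least 9652 counts in a library and Hspe1 at most 3857. The Hspe1 count is therefore uncertain, and by how much was not tested.

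In the authors' deposited table, the log2 fold changes of the 10 genes had the same directions and ran from -0.76 (Hspe1) to 0.52 (Cct8). The authors' deposited table gave all 10 an FDR under 0.05, with the largest, 0.0359, for Cct4, where 23.9% of the rows of that table had one.

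Summed over the 8 subunits, the CCT transcripts were at 4626, 4601 and 4609 CPM in I/R and at 4517, 4520.1 and 4544 CPM with chemerin-9. The sum thus differed by -1.85% (4612 ± 12.6 and 4527 ± 15.1 CPM), with groups that did not overlap. The make-up of that sum moved more than the sum. Cct2 supplied 18.5% ± 0.0638 of the CCT counts in I/R and 13.6% ± 0.0926 with chemerin-9. The share of Cct8 went the other way, from 6.88% ± 0.171 to 10.1% ± 0.178. Tcp1 went from 11.9% to 9.48%, Cct3 from 7.52% to 9.06%, Cct6a from 13.4% to 15.4% and Cct5 from 18.3% to 20.0%. Cct4 and Cct7 stayed within 1 percentage point (11.9% to 11.4% and 11.5% to 11.0%).

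Levels of different genes were compared per length, as CPM per kilobase of the median annotated transcript. In I/R, Cct5 was highest at 456 ± 7.57 CPM per kb, followed by Cct2 at 437 ± 2.69, and no library of one reached the other. Tcp1 (253 ± 2.31) and Cct6a (252 ± 5.86) overlapped, as did Cct4 (220.3 ± 3.32) and Cct7 (218 ± 3.34). Cct3 (175 ± 5.04) and Cct8 (133 ± 3.52) were lowest. The proteins are used in equal numbers in each ring, whereas the highest CCT transcript was 3.34, 3.38 and 3.59 times the lowest in the I/R libraries.

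With chemerin-9 the levels per length drew closer. The same ratio was 2.49, 2.67 and 2.54, below every I/R library, and the ratio of Cct2 to Cct8 went from 3.23, 3.27 and 3.38 to 1.63, 1.70 and 1.64. Cct5 stayed highest at 488 ± 8.88 CPM per kb, Cct2 was at 315 ± 2.12 and Cct6a at 284 ± 2.33. Cct4 (208 ± 5.72), Cct3 (207 ± 1.14) and Cct7 (204 ± 2.24) overlapped, and Tcp1 (197 ± 1.68) and Cct8 (190.2 ± 3.58) came last. If the longest transcript of Tcp1 is used, Tcp1 and not Cct8 is lowest with chemerin-9. Per length, Hspd1 was 1.57 to 1.59 times the mean CCT subunit in I/R and 1.32 to 1.35 times with chemerin-9. Hspe1 stood at 0.471, 0.518 and 0.720 of Hspd1 in I/R and at 0.352, 0.465 and 0.413 with chemerin-9, ranges whose nearest values, 0.465 and 0.471, nearly met.

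**Figure D2:**
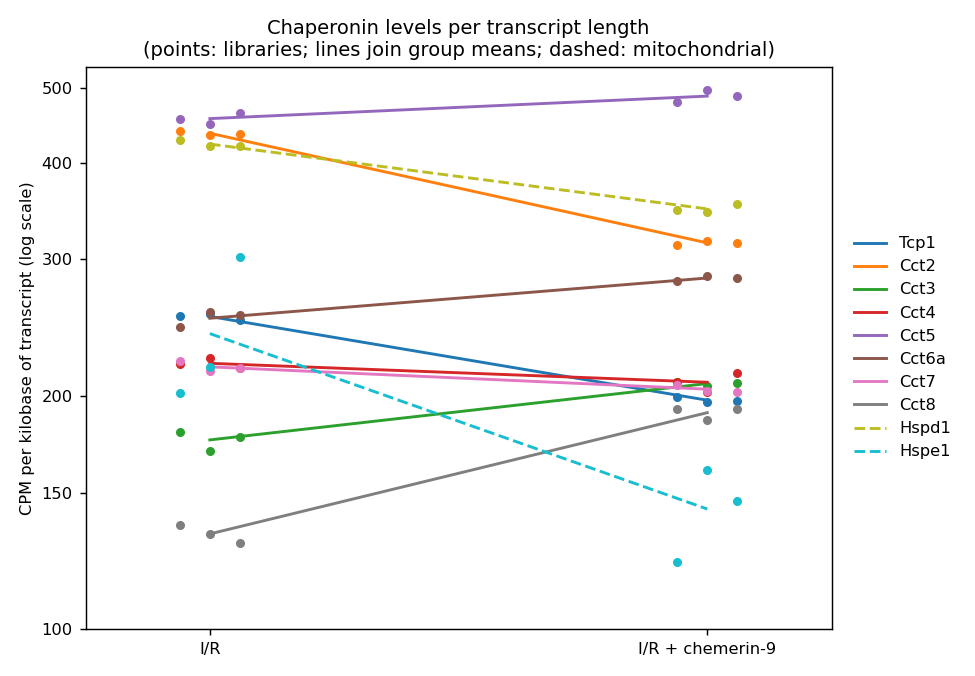
Level per transcript length (CPM per kilobase, log axis) of each chaperonin gene in the 3 libraries of each group, with lines between the group means and dashed lines for Hspd1 and Hspe1. The CCT subunits span 133 to 456 CPM per kb in I/R, and with chemerin-9 they span 190.2 to 488, and the lines of Cct3 and Cct8 rise toward those of Tcp1, Cct4 and Cct7.

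The design allowed a direct comparison of the cytosolic subunits with the mitochondrial genes, as the change of each gene relative to Hspd1 in the same library. Against Hspd1, 6 CCT genes were higher with chemerin-9 and 2 were lower. Over all genes 61.2% passed this test of limma (52.1% higher and 9.13% lower), so being higher than Hspd1 is what most genes did. Cct8 gained most on Hspd1, by 0.80 on the log2 scale (95% interval 0.73 to 0.87, limma adjusted p = 4.75e-11). Cct3 (0.52), Cct6a (0.45) and Cct5 (0.37) followed, and Cct4 (0.20, adjusted p = 5.32e-05) and Cct7 (0.18, adjusted p = 1.06e-04) fell less than Hspd1 did. Cct2 fell further than Hspd1, by 0.19 (log2 -0.19, 95% interval -0.26 to -0.13, limma adjusted p = 3.66e-05). Tcp1 lay closest to Hspd1, at -0.08 (95% interval -0.15 to -0.01, adjusted p = 0.0346), and that call ended on leaving out any 1 of 5 of the 6 libraries, all but I/R replicate 3 (adjusted p = 0.0522 to 0.110). The log2 ratio of the CCT sum to Hspd1 was 2.16, 2.17 and 2.18 in I/R and 2.42, 2.44 and 2.41 with chemerin-9.

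**Figure D3:**
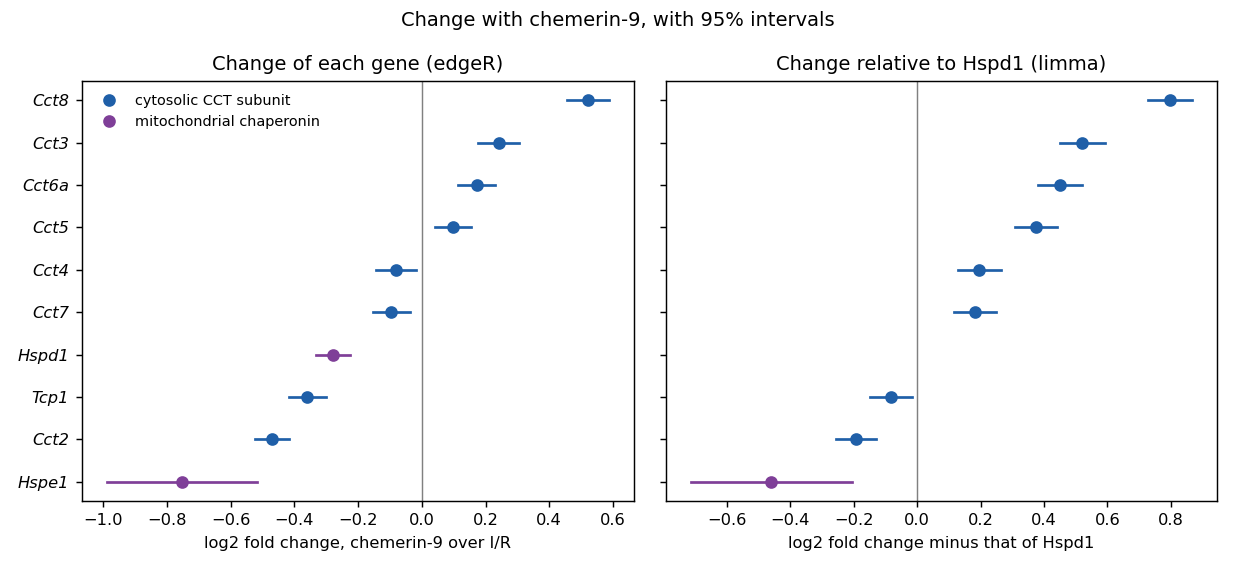
Log2 fold change of each chaperonin gene with chemerin-9 (left, edgeR) and the same relative to Hspd1 (right, limma), CCT subunits in blue and mitochondrial genes in purple. Points have 95% intervals, by a normal approximation on the left, which is somewhat too narrow, and by the t distribution on the right. The CCT subunits run from -0.47 (Cct2) to 0.52 (Cct8) on the left, with Hspd1 at -0.28 and Hspe1 at -0.75, and on the right Tcp1 and Cct2 remain below 0.

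Relative to Hspe1 the intervals were wider. The same 6 CCT genes were higher, from 0.64 (Cct7, adjusted p = 0.0155) to 1.26 (Cct8, adjusted p = 4.07e-06), where 66.6% of all genes passed and 66.0% were higher. Tcp1 (0.38, 95% interval -0.10 to 0.86, limma adjusted p = 0.151) and Cct2 (0.27, 95% interval -0.21 to 0.74, limma adjusted p = 0.311) did not pass, which does not show that they moved like Hspe1. Without I/R replicate 3 these values were 0.20 (adjusted p = 0.356) and 0.09 (adjusted p = 0.684), and without chemerin-9 replicate 1 that of Cct2 was 0.16 (adjusted p = 0.629). The Cct4 and Cct7 calls ended without chemerin-9 replicate 1 (adjusted p = 0.0985 and 0.114) or chemerin-9 replicate 3 (adjusted p = 0.0785 and 0.0744). Hspe1 itself changed by -0.46 relative to Hspd1 (95% interval -0.71 to -0.21, adjusted p = 0.00346). With Hspe1 as the reference in place of Hspd1, the same difference had an adjusted p of 0.0788, so the call depends on which of the pair is the reference. Without I/R replicate 3 that difference was -0.28 (adjusted p = 1.39e-04 with Hspd1 as the reference).

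Among the profiles over the 6 libraries, measured as the root mean square difference of log2 CPM centred on the I/R mean, Cct4 and Cct7 were the closest pair of members (0.0338). Tcp1 was closer to Hspd1 (0.0597) than to Cct2 (0.0802), and Cct5 lay as close to Cct6a (0.0599). Hspe1 and Cct8 were farthest apart (0.921). The other genes whose profile was nearest to the mean of the 8 CCT genes, out of 6413 with a mean log2 CPM of at least 5, were Stam2 (0.00801), Actr1a, Plekha1, Phf3 and Ppp1r12c (0.0146), which scarcely changed. The CCT mean averages rises and falls, and Cct2 and Cct8 were 0.701 apart, so nearness to it is not likeness to each subunit gene. Those nearest to the mean of Hspd1 and Hspe1 were Rps15 (0.0264), Aamp, Rpl18, Rpl11 and Rpl10a (0.0441). All but Aamp encode ribosomal proteins. That mean is the profile of neither gene, since Hspd1 and Hspe1 were 0.392 apart. The genes nearest to it had log2 fold changes from -0.48 (Aamp) to -0.54 (Rpl11), between those of Hspd1 (-0.28) and Hspe1 (-0.75). I/R replicate 3 was the highest library both for Hspe1 and for the share of ribosomal protein genes. Whether that has a part in the likeness was not tested.

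The main clients of CCT were lower as transcripts. Of 18 actin and tubulin genes, 14 fell, none rose and 4 did not pass, with a median log2 fold change of -0.51. Over all tested genes 25.6% rose and 26.1% fell. Among those at least as abundant as the least abundant chaperonin gene, 34.9% rose and 40.0% fell. Actg1, the cytoplasmic gamma actin, fell from 1622 ± 6.40 to 789.9 ± 13.3 CPM (log2 -1.04, edgeR adjusted p = 5.64e-13). The tubulin gene Tubb5 fell from 1432 ± 36.7 to 760.0 ± 14.0 CPM (log2 -0.91), and Tuba1a (log2 -0.77) and Tubb2b (log2 -0.98) fell as well. Other proteins reported to need CCT were mixed, with 7 of 18 genes higher (38.9%, against 25.6% of all tested genes and 34.9% of the abundant ones), 3 lower and 8 not passed (median 0.09). Vhl, the substrate receptor that marks HIF for destruction, rose from 42.9 ± 2.14 to 65.1 ± 2.18 CPM (log2 0.60), and Cdc20, an activator of the anaphase-promoting complex, fell from 111 ± 3.43 to 78.0 ± 2.46 CPM (log2 -0.51). Ppp2r2a (log2 0.28) and Strn3 (log2 0.35), regulatory subunits of the phosphatase PP2A, rose.

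Prefoldin hands unfolded actin and tubulin to CCT, and the phosducin-like proteins and tubulin cofactors act with it or after it. Of 15 such genes tested, 1 rose, 6 fell and 8 did not pass, with a median log2 fold change of -0.11. The share that fell, 40.0%, was that of the abundant genes (40.0%) and above that of all tested genes (26.1%). Counts of this list were the same without I/R replicate 3, the highest library for Pfdn6 (40.2, 42.2 and 56.6 CPM in I/R) and Pfdn5 (116, 112 and 139.8 CPM in I/R), which both fell and were picked after their values were seen. Tbcb, a tubulin cofactor, fell from 53.8 ± 3.31 to 33.2 ± 2.49 CPM (log2 -0.70, edgeR adjusted p = 1.16e-06). Pdcl (log2 -0.34) and the small GTPase gene Arl2 (log2 -0.38) also fell, and Txndc9, a phosducin-like protein, rose from 90.9 ± 1.53 to 108 ± 5.74 CPM (log2 0.25). Of the 4 tested relatives of CCT, Mkks rose from 5.47 ± 0.833 to 8.29 ± 0.954 CPM (log2 0.60, adjusted p = 0.00522). Bbs10 (log2 0.39, adjusted p = 0.0617), Bbs12 (log2 0.19, adjusted p = 0.167) and Cct6b (log2 0.06, adjusted p = 0.927) did not pass. Mkks, Bbs10 and Bbs12 encode chaperonin-like proteins of the Bardet-Biedl syndrome complex, and Cct6b is a subunit variant known from testis.

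**Figure D4:**
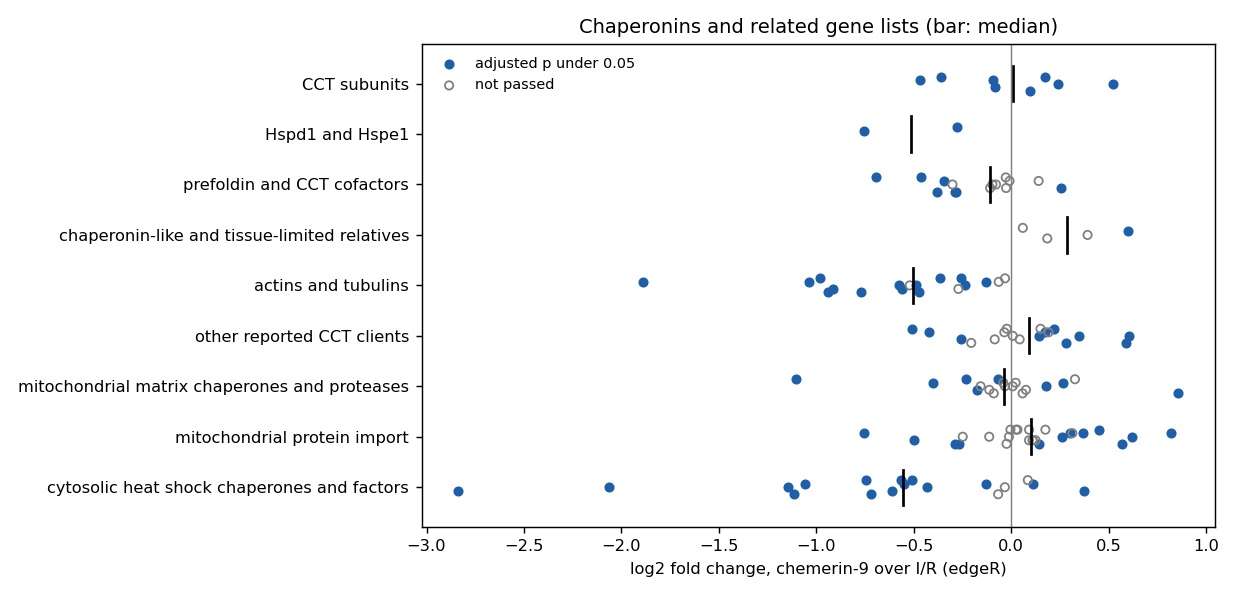
Log2 fold change with chemerin-9 (edgeR) of each tested gene of the chaperonins and of 7 related gene lists, filled where the adjusted p was under 0.05, with a bar at each median. The CCT subunits lie on both sides of 0, while the actins and tubulins (median -0.51) and the cytosolic heat shock genes (median -0.56) lie mostly below it.

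Other genes of protein folding, turnover and import in the mitochondrion changed in both directions. Of 18 genes of mitochondrial chaperones and proteases, 3 rose, 5 fell and 10 did not pass, with a median log2 fold change of -0.04. That list is not limited to proteins of the matrix, where HSP60 and HSP10 act. The share that fell, 27.8%, is near the 26.1% of all tested genes. Dnlz, a cofactor that keeps mitochondrial HSP70 soluble, rose from 14.5 ± 1.58 to 26.4 ± 0.452 CPM (log2 0.86), whereas Hscb, a cochaperone of iron-sulfur cluster assembly, fell from 13.5 ± 3.12 to 6.28 ± 0.991 CPM (log2 -1.10). The protease gene Htra2 (log2 -0.40) and the disaggregase gene Clpb (log2 -0.23) fell. Hspa9, which encodes mitochondrial HSP70 and was picked after its values were seen, fell from 1808 ± 46.5 to 1726 ± 6.41 CPM (log2 -0.07, edgeR adjusted p = 0.0471). Of 26 genes of mitochondrial protein import, 8 rose, 4 fell and 14 did not pass (median 0.10). The 30.8% that rose is near the 25.6% of all tested genes, and without I/R replicate 3 the counts were 9 and 2. Timm22, the carrier translocase of the inner membrane, rose from 39.0 ± 1.19 to 68.9 ± 1.07 CPM (log2 0.82), and Timm9 (log2 0.57), Tomm70a (log2 0.30) and Dnajc15 (log2 0.62) rose too.

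Many genes of cytosolic heat shock chaperones, like Hspd1 and Hspe1, are classical targets of the heat shock transcription factors. The list used here also held the factors Hsf1 and Hsf2, so its counts are not those of targets alone. Of 18 listed genes tested, 2 rose, 13 fell and 3 did not pass, with a median log2 fold change of -0.56. The share that fell was 72.2%, against 26.1% of all tested genes and 40.0% of the abundant ones. Hspb1, the small heat shock protein HSP27, fell from 202 ± 8.26 to 28.2 ± 2.89 CPM (log2 -2.84, edgeR adjusted p = 7.76e-14). Hspa8, the constitutive HSP70, fell from 1948 ± 24.0 to 467 ± 8.38 CPM (log2 -2.06), and the HSP90 genes Hsp90ab1 (log2 -1.14) and Hsp90aa1 (log2 -1.06) fell. The transcript of Hsf1, the main heat shock transcription factor, was at 76.0 ± 2.27 and 80.6 ± 4.29 CPM (log2 0.08, adjusted p = 0.186), a gene likewise named after its values were seen.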

How the data were processed

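Per the labels' protocols, total RNA went into stranded mRNA libraries (Vazyme kit). The submitters' processing notes name HISAT2, HTSeq, DESeq 1.18.1 and mm10. Which annotation was counted, and with which strand setting, is not stated in those sources. Raw counts for each symbol stood in the deposited table, next to columns of the authors' own log2 fold change, ratio (fold change), p-value and FDR, per the file headers. It had 25216 rows, of which 27 repeats were removed.

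The 3 treated samples read C9, C10 and C11 in their treatment field and C9 in every title, and titles were followed. Counts were fitted with edgeR 4.0.16 in R 4.3.3 (TMM factors, filterByExpr by group, quasi-likelihood test on group, Benjamini-Hochberg over 14184 genes, threshold 0.05). CPM used TMM-adjusted library sizes, given as mean ± SD over 3 libraries. Changes relative to Hspd1 or Hspe1 were fitted for all genes with limma 3.58.1 on log2 CPM (prior count 2) minus that of the reference. Intervals are at 95%, by the t distribution for limma. Those drawn for edgeR use a normal approximation and are somewhat too narrow. Lengths came from GENCODE M21. Copies were sought with BLAST 2.17.0 (95% identity or more, covering 50% or more of the shorter sequence). The fits were also run on simulated data in which few genes changed and all genes had the same dispersion. That run does not test data where many genes change, or a gene with the spread of Hspe1. Alternatives used DESeq2 1.42.0, limma-voom, other scalings and filters, a replicate block, a trend correction and each library left out.

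The members, the related gene lists and the tests were chosen with earlier results of these data known. Named genes were the 10 members, of each list up to 4 tested genes with the smallest p, and the 5 genes nearest to each mean profile. Genes absent from the rows of the table were not analysed here.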

Additional observations from a re-analysis of the deposited data

How the results depend on the processing

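Of 368 repeats of single gene values over the alternatives, 340 kept direction and side of the threshold, 28 lost the call and 0 reversed. The losses were for Cct4, Cct5 and Cct7, for Cct4 and Cct7 relative to Hspe1, and for Tcp1 and Hspe1 relative to Hspd1 (Hspe1 with no variance trend, adjusted p = 0.0865). Of 148 repeats of counts and levels, 137 stayed in range, meaning within 1.5 times for a count and within 1 SD for a level. By that measure 6 CCT genes higher relative to Hspe1 against 4 (without chemerin-9 replicate 1 or 3, and at an adjusted p under 0.01), and 4 CCT genes that rose against 3 (without replicate 2 of either group, and at that threshold), count as in range. The number of CCT genes that fell was 2 at an adjusted p under 0.01, and 2 to 4 on leaving out each library, with 2 without I/R replicate 1, against 4. The number lower relative to Hspd1 was 1 with no low count filter, at an adjusted p under 0.01 and with no variance trend, and 1 to 2 on leaving out each library (1 without each but I/R replicate 3), against 2. The highest over the lowest CCT level with chemerin-9 was 2.78 by longest transcripts, against 2.56. Among the CCT genes only the length of Tcp1 differs between these choices (2446 against 2174 bases), and Tcp1 is then lowest. For the counts out of range, except at stricter thresholds or with fewer libraries, the cause was not tested.

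Same-numbered replicates correlated at 0.102, -0.0520 and 0.0420, and not every library correlated best with its own number. These values do not show a pairing by number, and with 3 libraries per group they cannot exclude it. With a replicate block, Cct4 had an adjusted p of 0.0648, 3 CCT genes fell and 4 rose, and 3692 genes were lower and 3608 higher, against 3699 and 3637. Depth matters for some members: in I/R the libraries of Cct2 varied by 0.617% and of Tcp1 by 0.912% (coefficient of variation), below the 0.906% and 1.13% that counting alone gives, while for Hspe1 the values were 22.5% and 1.92%. Counts of the related gene lists were also taken without I/R replicate 3, an alternative chosen after seeing the data. They stayed within 1.5 times, except that 2 and not 4 genes of mitochondrial import fell.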
